A study of Mus musculus with 3 samples.

Results

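Arterial endothelial cells were described in 1 single-cell RNA library of mouse hippocampus. A barcode of the library counted as arterial if it passed the cell filter, carried endothelial transcripts and held at least 2 unique molecular identifiers (UMIs, each 1 captured transcript) of Gkn3, Bmx, Sema3g and Fbln2 together, and no more UMIs of the venous genes Lrg1, Il1r1 and Vwf than of those 4. By that rule 281 of 1521 endothelial cells were arterial, or 18.5% (exact 95% Clopper-Pearson interval 16.6 to 20.5), and they made up 4.33% of the 6485 barcodes that passed the filter, out of 6672 in all. The other 1240 endothelial cells served as the comparison. Of these, 557 were venous-type, with at least 2 UMIs of Lrg1, Il1r1 and Vwf and more of them than of the arterial genes, and 683 carried too few of either and are called capillary, a name that rests on the absence of other marks.

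The library came from 5 pooled mice that carry Aldh1l1CreERT2, a tamoxifen-inducible recombinase driven by an astrocyte promoter, with the Cre-dependent reporter Rosa26-LSL-tdTomato. The hippocampus of each had received the Cre-dependent vector AAV-TIGRi-Hopx, which carries EGFP and represses the gene Hopx, and tissue was taken 3 weeks after tamoxifen and sorted for cells positive for tdTomato and EGFP. Age, sex and strain background are not given in the sources used here. All cells described here come from that 1 library and share its vector, its tamoxifen and its sort, the mouse behind a barcode is unknown, and no vector-free library was analysed here, so the values describe arterial cells of injected hippocampus and say nothing of what the repression did to them. The anti-Flag and IgG chromatin samples of primary astrocytes were not analysed here.

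Brain arteries and arterioles carry blood at high pressure to the capillary bed, and their endothelium sits on an elastic layer next to smooth muscle. Arterial identity is set by Notch signalling, with ligands such as Dll4 and Jag1 and target genes such as Hey1, together with SOX17 and the ephrin ligand Efnb2, whereas Nr2f2 marks veins. Endothelial genes of the brain change gradually along the vessel from artery through capillary to vein. Capillaries and venules hold most of the exchange surface, where nutrient transporters and the transferrin receptor work.

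The cells were chosen by the UMIs of 4 arterial and 3 venous genes, whose values are given as a description, with no test. Gkn3 (ENSMUSG00000030048), a gastrokine family gene known from brain arteries, had a UMI in 165 of 281 arterial cells, with a highest value of 25 in 1 cell and a median of 1. Sema3g (ENSMUSG00000021904), a secreted semaphorin, was seen in 214 arterial cells, Bmx (ENSMUSG00000031377), a tyrosine kinase of arterial endothelium, in 158, and Fbln2 (ENSMUSG00000064080), an extracellular matrix fibulin, in 108. In microglia, which should lack these genes, they were seen in 0.0364% to 0.146% of 2747 cells. An arterial cell held a median of 4 such UMIs and at most 33. All 4 genes were found in 24 arterial cells, 3 in 87, 2 in 118 and only 1 in 52. At the threshold, 65 arterial cells sat exactly at 2 UMIs, 183 endothelial cells sat just outside it at 1, and 21 with 2 or more were outside because venous genes were higher. A venous UMI was present in 154 arterial cells, mostly from Vwf, which was found in 51.6% of arterial and 52.3% of other endothelial cells, and in 17 the arterial and venous sums were equal. The group is cut from a count, and these counts cannot show whether arterial cells have a sharp boundary.

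Depth was similar but not equal between groups. Arterial cells held a median of 3895 UMIs (701 to 15306), venous-type cells 4200 and capillary cells 3012, against 5457 over all barcodes. Each group's UMIs were added up, 1217748 in arterial and 4998106 in other endothelial cells, and are given per 1000000 of the group's total (CPM). Intervals in brackets are exact 95% intervals and cover counting error only. With 1 library there is no replicate check and no test, and cells are not replicates. A gene is called higher or lower if it reached 20 CPM in either group and the ratio was at least 2 or at most 0.5. The genes that chose the cells were left out.

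The label was checked against markers of other vessels and cells. The 8 general endothelial markers that the rule did not use were at 6955 (6808 to 7105) CPM in arterial cells, 5691 (5625 to 5757) in the others and 369.6 (361 to 378) in microglia. The 3 fenestrated endothelium markers summed to 72.3 (58.0 to 89.0) CPM in arterial cells and 35.8 (30.8 to 41.5) in the others. All 88 arterial UMIs were of Plpp3, a lipid phosphatase, and Plvap and Esm1 had 0, which allows up to 3 UMIs in 1217748. The 4 lymphatic markers summed to 55.0 (42.6 to 69.9) and 85.6 (77.7 to 94.1) CPM. Of the 67 arterial UMIs 64 were of Flt4, the receptor VEGFR3, found in 55 arterial cells, 2 of Pdpn, 1 of Lyve1 and 0 of Prox1. Markers of smooth muscle and pericytes were also found, and whether their RNA came from neighbouring wall cells was not tested. The 6 smooth muscle markers, all detected, summed to 324 (293 to 358) CPM in arterial cells, 77.7 (66.5 to 90.2) in capillary and 39.7 (32.6 to 47.8) in venous-type cells, with 0 to 85 UMIs in a single arterial cell. They were found in 105 of 281 arterial and 139 of 1240 other endothelial cells, and 5 arterial cells held 56.2% of the arterial sum. Mylk gave 151 of the 395 arterial UMIs and was in 96 of those 105 cells, whereas Acta2 was in 17, Myh11 in 15, Des in 11 and Tagln in 9. Without Mylk the sum was 200.4 (176 to 227) CPM in arterial and 28.2 (23.7 to 33.3) in other cells, found in 29 and 41 cells. The 6 pericyte markers, also all detected, stood at 415 (379 to 452) CPM in arterial against 175 (164 to 187) in other cells. Rgs5 gave 332 of the 505 arterial UMIs, at 273 against 98.6 CPM. The ratios of Pdgfrb, Higd1b and Vtn were 2.99, 2.32 and 1.74, that of Abcc9 was 1.05, and that of Kcnj8, with 1 arterial UMI, was 0.316. At least 3 UMIs of the 2 sets together were found in 40 arterial cells (14.2%) and 71 others (5.73%), and the ratios below are given without those cells where that matters most, which leaves cells with 1 or 2 mural UMIs in. Fibroblast markers reached 67.3 CPM in arterial cells, of which 89.0% came from 1 cell. The 5 microglial markers outside the rule were at 225 and 226 CPM in arterial and other cells, against 5389.7 in microglia. The C1q genes and Ttr were capped by the rule. Ependymal markers were at 145 and 106 CPM, with 59.1% of the arterial sum in 1 cell, oligodendrocyte markers at 150.3 and 155, the 4 choroid plexus markers other than Ttr at 11.5 and 11.004, and T, B and border macrophage markers at 0.821 to 20.8 in either group. Red cell markers were at 2193 and 1921 CPM, found in 20 arterial cells, 5 of which held 99.4% of the sum. Doublet calling marked 7 arterial cells (2.49%) and 26 others (2.10%), which were kept.

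Of 7176 genes that reached the level, 239 were higher in arterial than in other endothelial cells, 3.33% of those measured, and 143 were lower, or 1.99%. Against venous-type cells 317 of 7203 genes were higher (4.40%) and 192 lower (2.67%), and against capillary cells 190 of 7213 were higher (2.63%) and 117 lower (1.62%). The median log2 ratio over all genes was 0.02 against other endothelial cells. All 239 higher genes and 141 of the 143 lower genes had Poisson intervals that did not overlap. Of the 239 higher genes, 208 (87.0%) stood in the order arterial, capillary, venous-type, an order seen in 24.9% of all genes measured. Of the 143 lower genes, 110 (76.9%) stood in the opposite order, seen in 21.5%. These shares rest partly on the choice of genes, which fixes arterial cells at one end, so the shares over all genes are not a like base. Capillary cells are those that the other rules left over, and their median depth of 3012 UMIs was the lowest of the endothelial groups. The part of this in their middle place was not tested. In 11 of the higher and 5 of the lower genes, over 50% of the UMIs came from 1 cell.

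The counts of higher and lower genes in each list below stand beside 3.33% higher and 1.99% lower over all genes measured. In the shorter lists a count of 0 or 1 cannot be told apart from those shares. Genes known from arteries had the highest median of the 22 lists. The rule partly fixed this, since it chose the cells by 4 arterial genes and against an excess of venous ones. Of 30 arterial list genes outside the rule, 26 reached the level, 19 were higher and 0 lower. Their median log2 ratio was 1.54 against 0.02 over all genes. In 24 of the 26 the level went down from arterial over capillary to venous-type cells. Mgp (ENSMUSG00000030218), matrix Gla protein, an inhibitor of vessel calcification, stood at 762 (714 to 813) CPM in arterial cells, 84.4 (72.8 to 97.4) in capillary and 34.3 (27.7 to 41.9) in venous-type cells, a ratio of 13.5 (11.8 to 15.4) to all other endothelial cells. Single arterial cells held 0 to 75 Mgp UMIs with a median of 1, and 53.4% held any, against 7.34% of other endothelial cells and 0.946% of microglia. With every cell thinned to 2000 UMIs, which 257 arterial and 1073 other cells reached, these shares were 42.4%, 4.75% and 0.187%. The ratio was 14.0 without cells of 3 or more mural UMIs, and the log2 ratio, 3.75 in all cells, was 4.11 without cells of 1 or more.

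Stmn2 (ENSMUSG00000027500), a microtubule regulator best known from neurons, was at 421 CPM in arterial, 85.8 in capillary and 26.3 in venous-type cells, a ratio of 7.98 (6.86 to 9.29) against all others. It was found in 184 of 281 arterial cells, with 0 to 14 UMIs and a median of 1, and in 0.328% of microglia. Of the neuronal markers Snap25 and Syt1 had 0 UMIs in arterial cells. Tm4sf1 (ENSMUSG00000027800), a membrane tetraspan protein of endothelium, had the most UMIs of the higher arterial list genes, at 1997 (1919 to 2078) CPM in arterial, 603 (571 to 636) in capillary and 345 (323 to 367) in venous-type cells. A single arterial cell held a median of 7 Tm4sf1 UMIs (0 to 40), against a median of 1 in both other groups. The groups overlapped cell by cell, since capillary cells reached 22 UMIs and venous-type cells 19. Alpl, tissue-nonspecific alkaline phosphatase, reached 195 CPM in arterial, 54.3 in capillary and 12.99 in venous-type cells. Egfl8, a secreted EGF-domain protein, was at 126 against 11.8 CPM, a ratio of 10.6 (7.83 to 14.6), and Cdh13, a cadherin without a cytoplasmic tail, at 277 against 48.4 CPM.

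**Figure D1:**
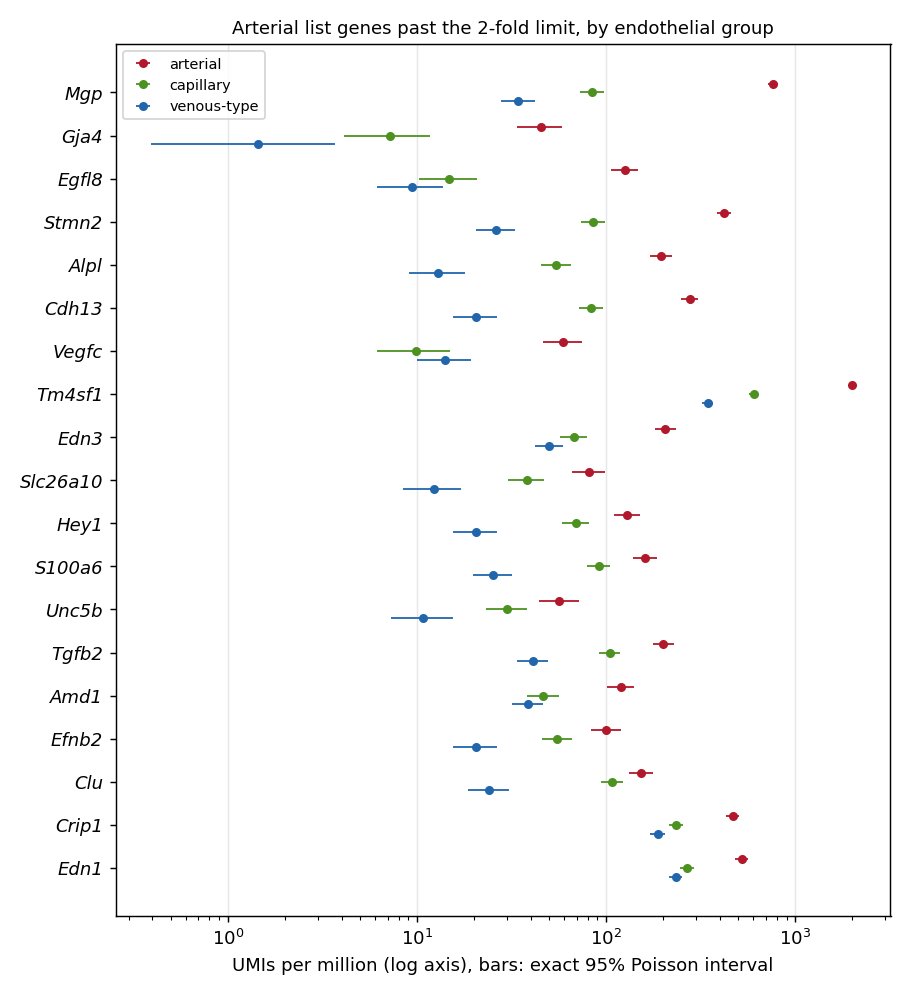
Levels of the 19 arterial list genes past the 2-fold limit, in UMIs per 1000000 on a log axis, for 281 arterial (red), 683 capillary (green) and 557 venous-type cells (blue), with bars for exact 95% Poisson intervals that cover counting error only. In 18 of the 19 genes capillary cells lie between arterial and venous-type cells, the exception being Vegfc, and arterial cells are highest in all 19.

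In the Notch pathway 2 target genes and 1 receptor passed the limit. Of its 20 genes 16 reached the level, 3 were higher and 0 lower (median log2 ratio 0.26). Hey1, a transcriptional repressor induced by Notch, was at 129 (109.5 to 151) CPM in arterial, 69.2 (58.7 to 81.0) in capillary and 20.6 (15.6 to 26.6) in venous-type cells, with a UMI in 107 of 281 arterial cells and in 12.4% of other endothelial cells. Nrarp, a Notch-induced feedback inhibitor, was at 35.3 against 16.2 CPM, a ratio of 2.18 (1.47 to 3.19) that was 1.55 without cells of 3 or more mural UMIs. The ligands were higher by less than 2-fold, Dll4 with 117 against 73.8 CPM and Jag1 with 121 against 70.2 CPM. Notch1, the main endothelial receptor, was at 304 against 214 CPM, Notch4 at 126 against 106 CPM and the DNA-binding partner Rbpj at 92.8 against 77.4 CPM. Notch3, the receptor of smooth muscle and pericytes, had a ratio of 7.49 (4.41 to 13.1), which was 1.31 without the cells of 3 or more mural UMIs, and the log2 ratio was -0.32 when cells with 1 or more were left out. Among transcription factors, 26 of 30 reached the level, 2 of them higher and 2 lower, and the median was 0.08. Besides Hey1, Prdm16, a zinc finger regulator, was higher at 95.3 against 34.0 CPM. Sox17, a SOX factor of arteries, was at 737 against 428 CPM, a ratio of 1.72 and below the 2-fold limit. Nr2f2, the venous nuclear receptor COUP-TFII, was lower at 31.2 CPM in arterial, 42.7 in capillary and 140.4 in venous-type cells, a ratio of 0.322 to all others that was 0.128 without cells of 3 or more mural UMIs. Against capillary cells alone the ratio without those cells was 0.327 (0.162 to 0.605). Mecom, a zinc finger factor, was at 817 against 1641 CPM, a ratio of 0.498 that was 0.512 without cells of 3 or more mural UMIs. The log2 ratio of Prdm16 was 0.97 without cells of any mural UMI, and that of Mecom -0.86 when cells were chosen after thinning to 2000 UMIs, both inside the 2-fold limit.

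Ligands and receptors of vessel growth and guidance were mixed. Vegfc, a ligand of VEGFR3, was at 59.1 (46.3 to 74.5) CPM in arterial, 9.88 (6.19 to 14.96) in capillary and 14.1 (10.0 to 19.2) in venous-type cells. Nrp2, a co-receptor for VEGFC and class 3 semaphorins, was lowest in arterial cells at 9.85 CPM in arterial, 30.1 in capillary and 96.0 in venous-type cells. These were the 1 higher and 1 lower gene of 11 measured in the VEGF and angiopoietin list, whose median was -0.23, and the main VEGF receptor Kdr was at 159 against 235 CPM. In the guidance list 4 of 17 were higher, 2 were lower, and the median was -0.28. Efnb2, the arterial ephrin ligand, was at 100.2 CPM in arterial, 55.2 in capillary and 20.6 in venous-type cells, and its log2 ratio of 1.48 was 0.87, under the limit, with cells chosen after thinning. Unc5b, a netrin receptor of arteries, was at 56.7 CPM in arterial, 30.1 in capillary and 10.8 in venous-type cells. The netrins Ntn4 and Ntn1 were at 57.5 against 16.4 CPM and 53.4 against 23.6 CPM, and Sema6a, a membrane semaphorin, was lower at 69.8 against 245 CPM.

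Promoters of the higher arterial list genes were read for the core letters that the Notch partner RBPJ and the SOX family bind, TGGGAA and ACAATG, on both strands, in the window from 250 bases before to 50 after each start in RefSeq annotation of GRCm38.p6, a build other than that of the counts. Of the 19 genes 14 matched an entry, 3 held TGGGAA and 1 held ACAATG. Over all 27025 genes of the table the shares were 28.3% and 14.3%, over the 5710 matched measured genes 25.6% and 8.97%, over the 176 matched higher genes 31.2% and 6.82%, and over the 110 matched lower genes 25.5% and 13.6%. The matches are letters and not known sites. The sequences of 2 RBPJ matches and the SOX match are shown for genes whose levels are given here, in the direction of the gene with the matched letters in capitals. TTCCCA and CATTGT are the motifs on the opposite strand.
Crip1 promoter, chr12:113151762-113152061, plus strand: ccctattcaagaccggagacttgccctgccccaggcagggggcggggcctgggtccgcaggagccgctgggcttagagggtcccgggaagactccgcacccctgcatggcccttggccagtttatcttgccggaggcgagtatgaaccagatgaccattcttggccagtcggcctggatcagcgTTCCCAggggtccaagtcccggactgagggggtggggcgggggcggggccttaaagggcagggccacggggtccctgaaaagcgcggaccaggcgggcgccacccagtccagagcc
S100a6 promoter, chr3:90612644-90612943, plus strand: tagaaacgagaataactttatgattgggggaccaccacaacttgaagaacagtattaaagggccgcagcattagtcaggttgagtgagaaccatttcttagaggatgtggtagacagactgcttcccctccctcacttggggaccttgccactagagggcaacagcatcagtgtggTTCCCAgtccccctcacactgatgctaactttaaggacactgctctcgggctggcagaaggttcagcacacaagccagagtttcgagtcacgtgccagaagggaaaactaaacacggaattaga
Unc5b promoter, chr10:60831532-60831831, minus strand: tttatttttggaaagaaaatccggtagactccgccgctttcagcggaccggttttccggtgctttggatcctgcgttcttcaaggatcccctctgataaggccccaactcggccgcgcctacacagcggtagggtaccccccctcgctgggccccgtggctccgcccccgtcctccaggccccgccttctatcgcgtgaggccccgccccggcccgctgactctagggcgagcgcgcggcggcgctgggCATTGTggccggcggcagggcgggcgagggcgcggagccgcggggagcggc
The Crip1 match begins at offset -66 and that of S100a6 at -74 from the annotated start, and that of Unc5b at -1. Crip1, a cysteine-rich LIM protein, was at 467 CPM in arterial, 235 in capillary and 187 in venous-type cells, a ratio of 2.24 to all others that was 1.94 without cells of 3 or more mural UMIs and so under the limit. S100a6, a calcium-binding protein, was at 161 CPM in arterial, 91.6 in capillary and 25.3 in venous-type cells.

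Matrix genes of the vessel wall included 2 of the largest ratios. Of 33 genes 20 reached the level, 5 were higher, 0 were lower, and the median was 0.21. Col18a1, a basement membrane collagen and the source of endostatin, was at 89.5 (73.5 to 108) CPM in arterial, 6.74 (3.77 to 11.1) in capillary and 6.13 (3.57 to 9.82) in venous-type cells, a ratio of 14.0 (9.35 to 21.4) to all others. It was found in 76 of 281 arterial and 27 of 1240 other cells, with at most 7 UMIs in an arterial cell, and its ratio was 13.6 without cells of 3 or more mural UMIs. Its log2 ratio was 3.79 in all cells and 4.43 without cells of 1 or more. Eln, the elastin of elastic layers, was at 110.0 CPM in arterial, 18.0 in capillary and 45.8 in venous-type cells, so here capillary and not venous-type cells were lowest. Lama3, a laminin chain, showed the same order at 69.0 CPM in arterial, 15.3 in capillary and 32.5 in venous-type cells. Timp3, an inhibitor of matrix metalloproteases, was abundant in all groups, with a median of 11 UMIs in an arterial cell and 4 in a capillary or venous-type cell, or 3443 CPM in arterial, 1686 in capillary and 1207 in venous-type cells. Secreted factors outside the lists had ratios as large. Igfbp3, an insulin-like growth factor binding protein, was at 245 against 21.6 CPM, a ratio of 11.3 (9.06 to 14.2), in 117 of 281 arterial cells, and Stc1, stanniocalcin, at 22.2 against 1.80 CPM. Pthlh, parathyroid hormone-related peptide, was at 27.9 against 1.601 CPM in 24 arterial and 7 other cells.

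Genes for cell coupling and vascular tone were higher in part. Gja4 (ENSMUSG00000050234), connexin 37 of arterial gap junctions, was the 1 higher gene of 15 measured in the junction list (median -0.13), at 45.2 (34.0 to 58.8) CPM in arterial, 7.19 (4.11 to 11.7) in capillary and 1.44 (0.393 to 3.70) in venous-type cells. It was found in 41 arterial cells with at most 4 UMIs each. Gja5, connexin 40, was below the level, with 2 UMIs in arterial cells and 0 in the others. In the tone list 4 of 14 were higher and 1 was lower, against 3.33% and 1.99% over all genes measured, and the median was 0.20. The endothelins, peptides that constrict smooth muscle, were among them: Edn1 was at 523 CPM in arterial, 268 in capillary and 233 in venous-type cells, with a log2 ratio of 1.07 that was 0.90 without cells of any mural UMI, and Edn3 at 206 CPM in arterial, 67.8 in capillary and 50.2 in venous-type cells. Trpv4, a calcium channel that responds to flow, was at 119 CPM in arterial, 30.1 in capillary and 20.9 in venous-type cells, a ratio of 4.76 (3.72 to 6.10), and Kcnj2, the inward rectifier potassium channel, was at 25.5 against 10.4 CPM. Nos3, the endothelial nitric oxide synthase, was at 223 against 253 CPM, a ratio of 0.881 (0.770 to 1.00). Nos1, the neuronal form and outside the lists, was at 28.7 (20.0 to 40.0) CPM in arterial and 2.60 (1.38 to 4.45) in other cells, in 30 of 281 arterial and 12 of 1240 other cells. Gper1, a membrane oestrogen receptor, was at 41.9 against 2.40 CPM in 34 arterial and 10 other cells. Adm, the vasodilator adrenomedullin, was the lower gene, at 18.9 against 51.8 CPM.

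In the BMP and TGF-beta list 3 of 16 were higher, 0 were lower, and the median was 0.24. Tgfb2, a ligand, was at 201 CPM in arterial, 105 in capillary and 41.1 in venous-type cells, Smad6, an inhibitor of BMP signalling, at 103 against 33.0 CPM, and Htra1, a secreted protease, at 77.2 against 38.0 CPM. The log2 ratio of Htra1 was 1.03 in all cells and 0.70 without called doublets, which is inside the 2-fold limit. Procr, the endothelial protein C receptor, was the 1 higher of 10 coagulation genes, at 32.0 against 12.4 CPM, with a log2 ratio of 1.38 that was 2.06 with cells chosen after thinning. None of 10 caveolar genes passed the 2-fold limit, with a median of 0.41 and Cav1 at 271 against 201 CPM. The Wnt list, whose signal maintains the barrier, had 0 higher and 1 lower of 18, with a median of -0.13. Its lower gene was the target Apcdd1, at 154 against 403 CPM, while Axin2 was at 96.1 against 110.2 CPM.

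**Figure D2:**
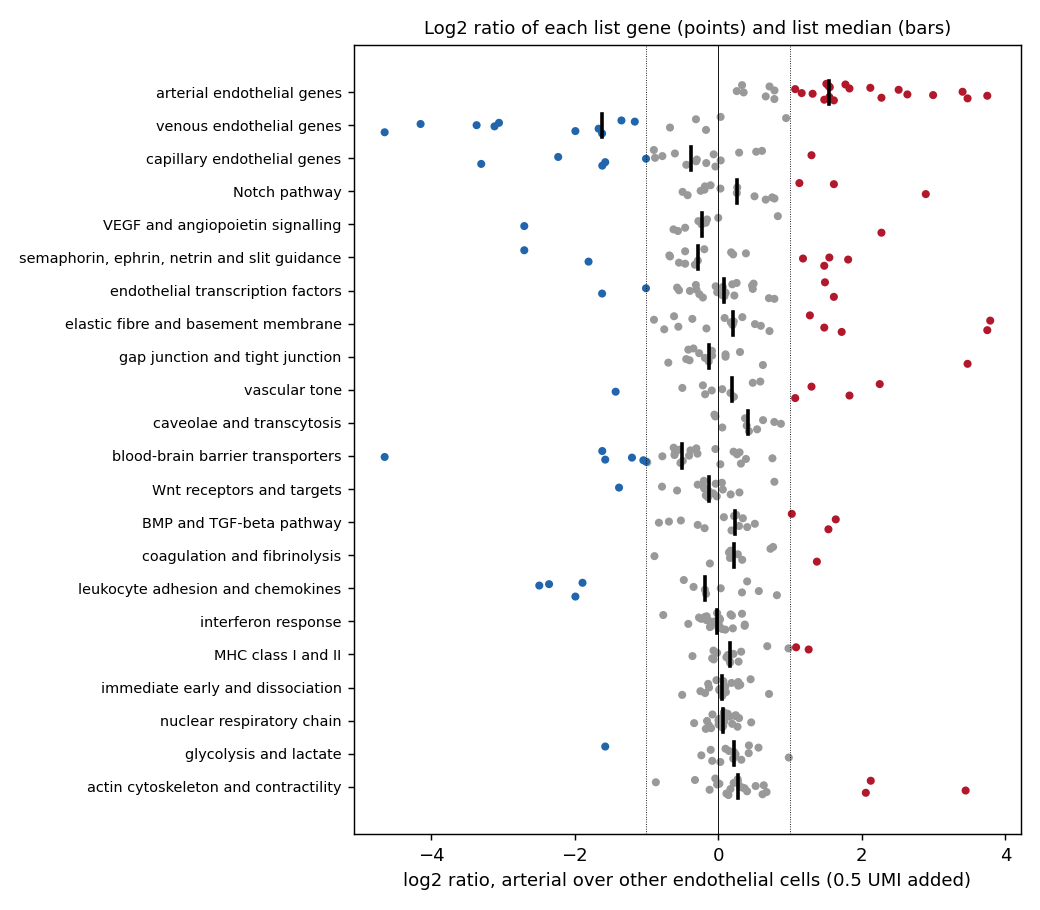
Log2 ratio of arterial over other endothelial cells for each measured gene of 22 lists (1 point a gene, 0.5 UMI added to each sum), with a black bar for the list median and dotted lines at ratios of 0.5 and 2; red and blue points passed the limits. The arterial list has the highest median, at 1.54, and the venous list the lowest, at -1.62.

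Venous genes were lower, which the rule partly fixed, since cells with more venous than arterial UMIs were kept out and those of the comparison were not. Of 20 venous list genes 15 reached the level, 0 were higher against 10 lower, and the median was -1.62. Tmsb10 (ENSMUSG00000079523), thymosin beta 10, an actin monomer binder, was at 217 (191 to 245) CPM in arterial, 1226 (1180.0 to 1272) in capillary and 2265 (2209 to 2322) in venous-type cells. Single arterial cells held a median of 0 Tmsb10 UMIs (0 to 20), capillary cells a median of 2 (0 to 133) and venous-type cells a median of 9 (0 to 61). After thinning to 2000 UMIs it was seen in 21.4% of arterial cells, 77.9% of other endothelial cells and 34.4% of microglia. Slc38a5, a glutamine transporter of veins, had 3 UMIs in arterial cells against 359 in the others, a ratio of 0.0343 (0.00704 to 0.101). Icam1, a leukocyte adhesion molecule, was at 35.3 CPM in arterial, 52.5 in capillary and 213 in venous-type cells, with a log2 ratio of -1.99 that was -3.88 with cells chosen after thinning. Outside the lists, Gm5127 had 0 against 192 UMIs, a ratio of 0 (0 to 0.0796). Of those UMIs 190 were in venous-type and 2 in capillary cells, so no difference from capillary cells was shown (0 to 9.74). Meox1, a homeobox gene, had 0 against 110 UMIs, a ratio of 0 (0 to 0.140). Cacna1e, a calcium channel subunit, had 1 against 267 UMIs, a ratio of 0.0154 (0.000388 to 0.0864).

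Genes of capillary exchange were lower in part. Of 20 capillary list genes all were measured, 1 was higher (Kcnj2) and 5 lower, with a median of -0.38. Car4, a carbonic anhydrase on the luminal surface, was at 53.4 (41.2 to 68.0) CPM in arterial, 461 (433 to 490.3) in capillary and 585 (557 to 614) in venous-type cells, and 26 of 281 arterial cells held a UMI, against 54.8% of capillary and 76.7% of venous-type cells. Its log2 ratio was -3.30, and -4.09 with a threshold of 3 UMIs and -4.42 with cells chosen after thinning. Tfrc, the transferrin receptor that takes up iron, was at 128 CPM in arterial, 409 in capillary and 381 in venous-type cells. Hmcn1, the matrix protein hemicentin, was at 99.4 CPM in arterial, 554 in capillary and 398 in venous-type cells. Mfsd2a, a lipid transporter of capillaries that limits transcytosis, was at 276 CPM in arterial, 348 in capillary and 232 in venous-type cells, a ratio of 0.973 (0.861 to 1.10) to all other cells. Of 26 measured barrier transporters 6 were lower and 0 higher, and the median was -0.51. Slc16a1, the monocarboxylate carrier MCT1, was at 68.2 against 204 CPM. The amino acid carriers Slc7a5 (LAT1) and Slc7a1 were at 618 against 1242 CPM and 296 against 611 CPM, close to the limit at ratios of 0.498 and 0.485, and at 0.538 and 0.524 without cells of 3 or more mural UMIs. Slc2a1, the glucose transporter GLUT1, was at 3612 CPM in arterial, 3432 in capillary and 3622 in venous-type cells, a ratio of 1.02 (0.988 to 1.06), with a median of 15 UMIs in an arterial cell. The efflux pumps Abcb1a and Abcg2 were at 1147 against 1401 CPM and 886 against 1346 CPM.

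**Figure D3:**
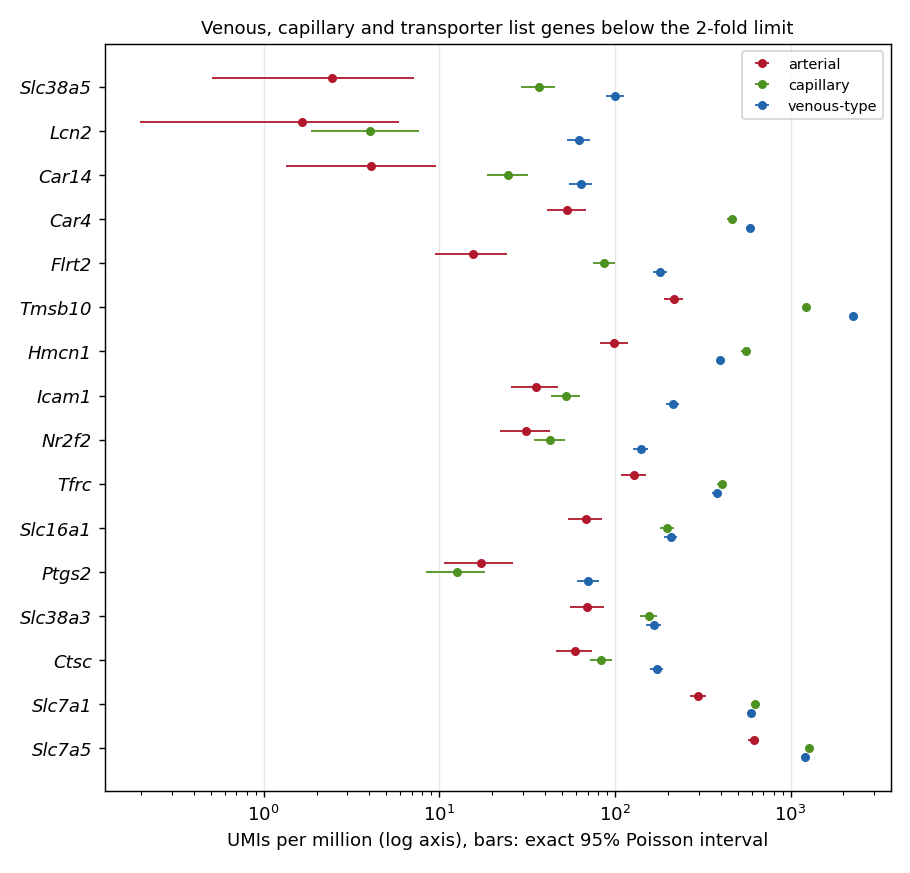
Levels of 16 genes of the venous, capillary and transporter lists below the limit of 0.5, in UMIs per 1000000 on a log axis, with exact 95% Poisson intervals that cover counting error only (red arterial, green capillary, blue venous-type). Arterial cells have the lowest level except in Ptgs2, and the arterial and capillary intervals overlap in Ctsc, Icam1, Lcn2, Nr2f2 and Ptgs2.

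Leukocyte adhesion, interferon, MHC and metabolic lists are read against the background of 3.33% higher and 1.99% lower over all genes measured. Of 13 adhesion and chemokine genes 4 were lower and 0 higher, and the median was -0.18: beside Icam1 these were the interferon-induced chemokines Cxcl9 (9.85 against 57.6 CPM) and Cxcl10 (15.6 against 81.8 CPM) and the chemokine Ccl5 (19.7 against 74.4 CPM). Cxcl9 had a log2 ratio of -2.49 that was -1.14 with each cell weighed equally and -1.25 with cells chosen after thinning. Ccl5 had -1.89, which was -1.16 with cells weighed equally, -3.08 without called doublets and -3.38 without cells of any mural UMI. None of 27 interferon response genes, of 19 immediate early and dissociation genes or of 24 respiratory chain genes passed a limit, with medians of -0.02, 0.06 and 0.07. Of 16 MHC genes (median 0.16) 2 were higher and 0 lower, H2-Aa and H2-Eb1 of class II, but 87.5% and 79.7% of their arterial UMIs came from 1 cell, and their log2 ratios were -1.03 and -0.11 without called doublets. Slc16a1 was also the 1 lower of 16 glycolysis and lactate genes, of which 0 were higher and whose median was 0.22.

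Several large ratios moved when cells with mural markers were left out, or rested largely on 1 cell. Of 23 actin and contractility genes (median 0.27) 3 were higher and 0 lower: Tpm2, a tropomyosin, with a ratio of 11.1 that was 2.04 without cells of 3 or more mural UMIs, Myl9, a myosin light chain, with 4.16 and 1.82, and Mylk, a myosin kinase, with 4.36 and 4.22. The Tpm2 ratio without those cells rests on 4 arterial and 9 other UMIs (0.460 to 7.32). Mylk is itself among the 12 markers that decide which cells were left out. With cells left out by the other 11 its ratio was 4.36 (3.31 to 5.74), over 252 arterial and 1184 other cells. Igfbp5 had a ratio of 13.3, but 93.5% of its arterial UMIs came from 1 cell. The ratio was 0.428 (0.112 to 1.18) without cells of 3 or more mural UMIs, from 4 arterial UMIs. Slc38a11 was at 12.7 and 3.07 (0.256 to 26.8), the second value from 2 arterial and 3 other UMIs. Ccl1, the chemokine at the head of the ranking, had 63 UMIs, all in 1 arterial cell, and 0 in others. Hbb-y, an embryonic globin, had 31 UMIs in 9 arterial cells, 51.6% of them in 1, beside the red cell RNA given above. Of the lower genes, Jchain and Slpi had 54.4% and 77.4% of their UMIs in 1 cell of the comparison. Arc, an immediate early gene outside the lists, had 26 UMIs in 11 arterial cells and 5 in others. The part that mural RNA or doublets had in these ratios was not tested. Kazald1, Igfbp4, Egfl8, Gask1b and Tmem100 had ratios of 8.87, 8.62, 9.63, 10.00 and 7.76 without those cells, all above 2.

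**Figure D4:**
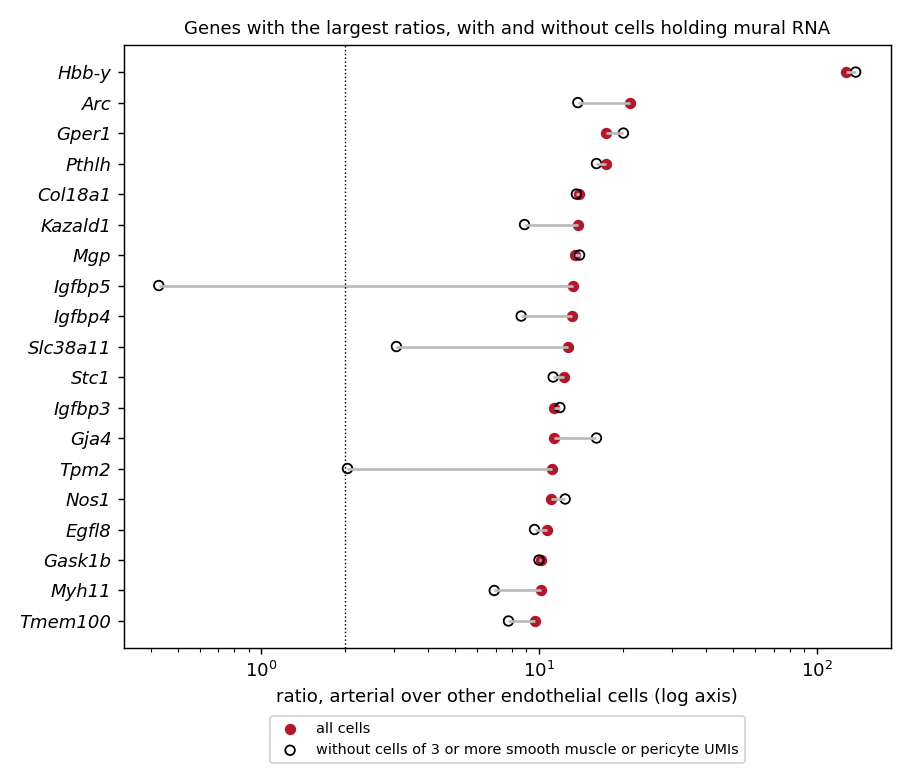
Ratio of arterial over other endothelial cells on a log axis for the genes with the largest ratios (Ccl1, with 0 UMIs in the other cells, left out), in all cells (red) and without cells of 3 or more smooth muscle or pericyte UMIs (open), with a dotted line at 2. Igfbp5, Slc38a11 and Tpm2 move most, their open points resting on 4, 2 and 4 arterial UMIs, and Mgp, Col18a1, Igfbp3 and Gask1b hardly move.

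Levels were set beside the number of arterial UMIs in a cell, on both sides of the threshold. Summed over the 30 arterial list genes, cells with 0 such UMIs had 4516 CPM, those with 1 had 6141, those with 2 had 8827, and those with 10 or more 11751. Mgp went over the same steps from 45.6 through 101 and 396 to 1252 CPM, and Tmsb10 went down from 1977 through 902 and 405 to 196 CPM. Inside the threshold the order did not hold for every gene. At 2, 3 to 4, 5 to 9 and 10 or more UMIs Tmsb10 was at 405, 142, 182 and 196 CPM, Efnb2 at 114, 90.0, 106 and 91.3, and Cdh13 at 236, 343, 278 and 217. Car4 went from 587 to 152 and 8.69 CPM. Hey1 and Efnb2 already stood at 95.4 and 78.2 CPM in cells with 1 such UMI, against 139 and 91.3 in those with 10 or more, whereas Gja4 stood at 5.30 and 65.2. For Mgp, Tmsb10 and Car4 the 65 cells just inside the threshold lay between the 183 just outside it and the 43 with the most UMIs. Steps of 2 or more leave out the 21 cells kept out by venous genes, while steps 0 and 1 keep venous-type cells. The fall of Tmsb10 and Car4 across the threshold was thus partly fixed by the rule. The 21 cells had Tmsb10 at 1532 and Car4 at 350 CPM. The steps also differed in depth, with median UMIs of 3388 at 0, 3520 at 1, 3465 at 2 and 4361 at 10 or more.

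**Figure D5:**
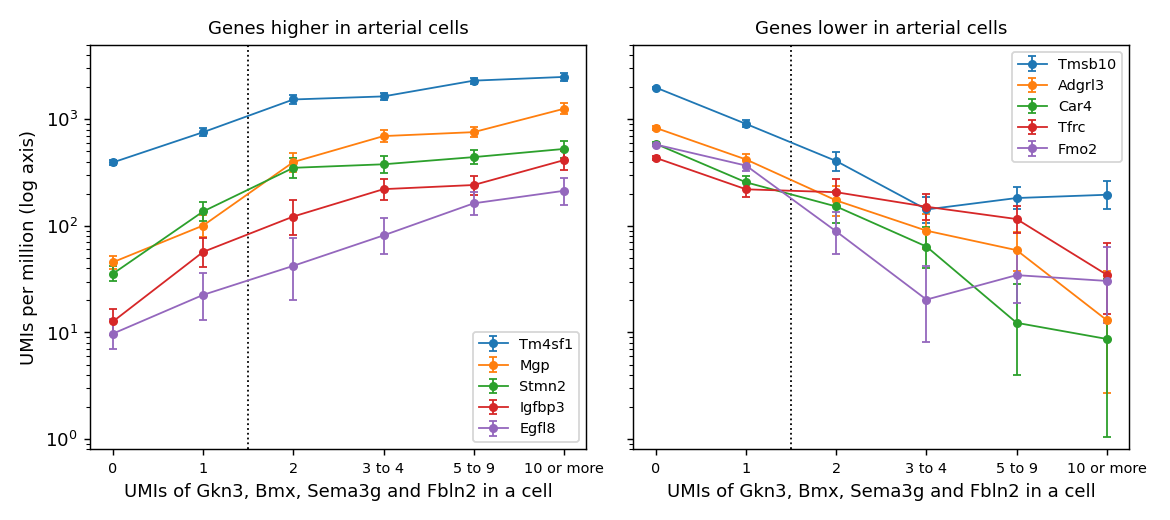
Level in UMIs per 1000000 (log axis) of 5 genes higher and 5 genes lower in arterial cells, by the number of Gkn3, Bmx, Sema3g and Fbln2 UMIs in a cell, with exact 95% Poisson intervals; the dotted line marks the threshold of 2 and the 21 cells kept out by venous genes are not drawn. In all 10 genes the level at 1 such UMI, outside the threshold, lies between those at 0 and at 2.

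The 165 arterial cells with a Gkn3 UMI were set beside the 116 without, as a description only. The split was chosen after values were seen and uses a gene of the rule, so that cells without Gkn3 had entered through the other 3 genes, and Sema3g was at 354 CPM with and 446 without Gkn3. Of the arterial list 18 of 26 genes had a ratio above 1, with a median of 1.12. Mgp was at 1024 CPM with and 372 without Gkn3, a ratio of 2.75 (2.34 to 3.25), and Eln at 140 and 65.4. Egfl8 was at 163 and 69.5. Hey1, in contrast, was at 132 and 125, Efnb2 at 102 and 98.1, and Sox17 at 760.4 and 701. S100a6 was lower with Gkn3, at 135 against 200.3. The smooth muscle markers Acta2, Myh11 and Tagln were higher with Gkn3, Acta2 at 143 against 28.6 CPM, but in few cells. Acta2 was in 13 cells with and 4 without Gkn3, Myh11 in 10 and 5, and Tagln in 6 and 3. A single arterial cell held 47 of the 118 Acta2 UMIs. Without cells of 3 or more mural UMIs the ratios were 2.61 for Mgp, 2.05 for Eln and 2.24 for Egfl8. Of the same 26 genes, 22 had a ratio above 1 between the 108 cells with and the 173 without an Fbln2 UMI, with a median of 1.17, and Mgp was at 833 and 715 CPM. Median depth was 3966 UMIs with and 3722 without Gkn3.

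The reporters and the repressed gene were rare in arterial cells although the library was sorted on the reporters. EGFP had 1 UMI in 1 of 281 arterial cells and 2 UMIs in 2 of 1240 others. tdTomato was found in 15 arterial cells, or 5.34% (3.02 to 8.65), in 3.05% of venous-type, 1.02% of capillary cells and 1.31% of microglia, and after thinning in 3.11% of arterial and 0.559% of other endothelial cells. The thinned level is that of a few cells with 1 UMI. Astrocyte markers, all 6 detected, were at 295 (265 to 327) CPM in arterial and 163 (152 to 175) in other endothelial cells, with 30.6% of the arterial sum in 1 cell. Capillary cells were at 267 (246 to 290) CPM, with 56.3% of the sum in 5 cells, and venous-type cells at 80.1 (69.9 to 91.4). An astrocyte marker UMI was found in 35.6% of arterial, 24.5% of capillary and 25.7% of venous-type cells. The part of astrocyte RNA in the tdTomato share was not tested. Hopx had 13 UMIs in arterial cells, 10.7 (5.68 to 18.3) CPM, against 18.9 (13.6 to 25.5) in capillary cells, 2.89 (1.25 to 5.69) in venous-type cells and 21.8 in microglia, so arterial cells were at or under the level of microglia.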

How the data were processed

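The deposited matrix holds raw UMI counts, which the submitters' processing notes credit to Cell Ranger 8.0.1, with GRCm39 as the genome build. It has 41915122 UMIs over 21750 features and 6672 barcodes of 1 library. Cells had at least 500 genes and at most 15% mitochondrial UMIs. Endothelial cells had at least 5 UMIs of Cldn5, Flt1, Pecam1 and Ly6c1, at most 10 of C1qa, C1qb and C1qc and at most 20 of Ttr. Microglia, used to show background RNA, had at least 5 UMIs of microglial marker genes, among them Cx3cr1, P2ry12 and Tmem119, and at most 2 of the endothelial genes.

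Levels are UMI sums per 1000000 with exact Poisson intervals, ratios have exact binomial and shares Clopper-Pearson intervals, at 95%. Log2 ratios have 0.5 UMI added. Named genes are the 20 largest and 20 smallest ratios past the limits with separate intervals, list genes past the limits and up to 4 of the most abundant others of each list. Not every gene this rule selects is printed. The members, the 22 lists (445 genes) and the rule were chosen with earlier results of these data known. Doublets were called with Scrublet in scanpy 1.11.5 at an expected rate of 0.05 (261 barcodes, 4.02%) and kept. Thinning drew 2000 UMIs per cell. Promoters came from RefSeq GRCm38.p6. The scripts, in Python 3.11.15 with numpy 2.4.6, scipy 1.17.1 and pandas 2.3.3, were tested on simulated data. Alternatives varied the filter, thresholds, doublets, thinning and mural RNA.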

Additional observations from a re-analysis of the deposited data

How the results depend on the processing

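Depth limits low genes, and with 1 library no replicate was left out. No paired analysis was possible because there is 1 library and no test. The arterial share was 14.2% with a threshold of 3 UMIs, 13.1% when cells were chosen after thinning to 2000 UMIs, and 11.9% without cells of 1 or more smooth muscle or pericyte UMI, an alternative chosen after seeing the data. In the order higher than other endothelial, lower than other endothelial, higher than venous-type and higher than capillary cells, the counts were 395, 325, 641 and 387 after thinning. They were 113, 90, 154 and 90 with genes at 50 CPM or more, 773, 746, 955 and 545 with no filter on level but 10 UMIs, and 551, 417, 720 and 526 at a ratio of 1.5. Without cells of 1 or more mural UMI 248 genes were lower than in other cells. The cause was not tested, apart from the fewer or more genes and cells that each alternative admits by construction. The other alternatives kept these counts within 1.5 times. Of 630 values for 63 named list genes, 557 stayed within their interval, 69 moved and 4 changed sign. H2-Aa had a log2 ratio of -1.03 without called doublets and -0.47 without cells of any mural UMI, H2-Eb1 had -0.11 without doublets, and Notch3 had -0.32 without cells of any mural UMI. Log2 ratios inside the 2-fold limit, besides those given beside the results, included -0.83 for Slc7a5, -0.61 for Ptgs2 and 0.57 for Crip1 without cells of any mural UMI, and -0.80 for Ctsc with cells chosen after thinning. Another alternative chosen after seeing the data left out cells of 3 or more mural UMIs without counting Mylk.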
